A study of Mus musculus with 4 samples.

Results

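The miR-148 family, to which miR-152 belongs, is a set of 3 microRNAs that share a seed. Its rows were taken by name from small RNA counts of mouse embryonic fibroblasts (MEFs), which are connective tissue cells cultured from embryos. Of 6 names sought (mmu-miR-148a, mmu-miR-148b and mmu-miR-152, written without the species prefix from here on, each with and without the star that marks the arm listed as the passenger strand), 4 were listed, out of 508 endogenous microRNAs in all. These were miR-152, miR-148b, miR-148a and miR-148a*. The names miR-148b* and miR-152* were not listed in any of the 4 libraries, and 0 listed rows carry the sequence that RefSeq gives for these 5′ arms. Whether the reference used for counting held these arms is not given in the sources used here, so no level is stated for them.

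All cells carry shLuc.1309, which is a short hairpin RNA (shRNA) directed at luciferase and so has no intended target in mouse cells. The 4 libraries are 4 groups of 1: shLuc.1309 cells without and with doxycycline (dox), and shLuc.1309;ROSA-rtTA cells without and with dox. rtTA, the reverse tetracycline transactivator, turns on tetracycline-responsive promoters in the presence of dox, and ROSA refers to Rosa26, a locus with broad activity across tissues. The labels give no dose, time, embryo age or number of embryos. Since each group is 1 library, no difference could be set against replicate spread, and every value below compares libraries, not conditions.

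MicroRNAs guide Argonaute proteins to messenger RNAs, mainly by pairing of the seed, bases 2 to 8 from the 5′ end. Members that share a seed tend to share targets. The miR-148 family is known for sites in Dnmt1, the maintenance DNA methyltransferase, and miR-148 also for Dnmt3b. miR-148a is known as abundant in liver, and miR-152 and miR-148b lie within paralogous host genes of the COPI vesicle coat, Copz2 and Copz1.

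The mature sequences (RefSeq, GRCm38.p6) are shown because the seed is what the members share and the bases after it are what tells them apart in counting. All 4 are identical to the sequences deposited with the counts. Capitals mark bases 2 to 8.
miR-148a: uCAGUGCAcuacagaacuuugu
miR-148b: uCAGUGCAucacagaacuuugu
miR-152: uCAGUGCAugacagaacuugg
miR-148a*: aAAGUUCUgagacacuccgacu
The 3 guides hold the same seed, and miR-148a* has another. Counting positions from 1 at the 5′ end, with the first-named microRNA's base first, miR-148a and miR-148b differ by 2 substitutions, C9U and U10C. miR-148b and miR-152 differ by 2 over the 21 bases of the shorter miR-152, C10G and U20G. miR-148a and miR-152 differ by 3, C9U, U10G and U20G. Each guide is thus 2 mismatches from another member, so reads with sequencing errors could be split between members or counted more than once, and the treatment of such reads is not given in the sources used here. The nearest listed microRNA outside the family was 9 mismatches away for each guide. The summed counts of the 3 guides, called the guide total below, do not depend on how reads were split between members. Reads counted more than once would still raise the guide total.

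The hairpins show where the arms sit, with both mature arms in capitals (RefSeq, GRCm38.p6).
Mir148a: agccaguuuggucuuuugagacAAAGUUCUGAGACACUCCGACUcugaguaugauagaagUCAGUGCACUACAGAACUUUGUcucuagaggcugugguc
Mir148b: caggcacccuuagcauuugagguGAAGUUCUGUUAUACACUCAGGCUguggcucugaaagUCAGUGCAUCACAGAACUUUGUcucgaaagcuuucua
Mir152: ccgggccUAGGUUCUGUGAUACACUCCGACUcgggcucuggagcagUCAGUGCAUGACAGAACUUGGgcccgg
In all 3 hairpins the guide is the 3′ arm. Mir148a lies at chr6:51269812-51269910 on the minus strand, outside protein-coding genes in the GENCODE M21 annotation (GRCm38), and the nearest one, Nfe2l3, is 162760 bases away. Mir148b lies at chr15:103285125-103285221 on the plus strand, within Copz1 (103272714 to 103299868) and on its strand. Mir152 lies at chr11:96850393-96850465 on the plus strand, within Copz2 (96849870 to 96861203) and on its strand. Neither overlaps an annotated exon of its host, so both are intronic.

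The libraries hold 6383594 to 8780954 counts. Levels are given as CPM, counts per 1000000 endogenous microRNA counts of the library, which leave out the shRNA, and intervals are 95% and cover counting error only. The shRNA held 0.0725% to 0.0786% of all counts in 3 libraries and 2.38% in rtTA cells with dox. Of 12 fibroblast and mesenchymal marker names 11 were listed, with summed levels of 526099 to 547274 CPM. Markers of other cell types summed to 672 to 829 CPM (neuronal), 246 to 592 (muscle), 120 to 175 (endothelial), 50.9 to 80.0 (blood), 4.86 to 17.4 (epithelial), 2.51 to 3.99 (liver miR-122) and 0.470 to 1.20 (pluripotent, with miR-290, miR-290-5p, miR-291a-3p, miR-302c and miR-302d not listed). Epithelial (17.4 CPM) and blood (80.0 CPM) markers were highest in rtTA cells without dox, where miR-152 was lowest, and endothelial markers (175 CPM) in the library without rtTA and with dox, where miR-148b was highest. Summed muscle and neuronal markers were highest in rtTA cells with dox, but members of both lists went in opposite directions. Against rtTA cells without dox, the log2 ratio of CPM was 0.71 for miR-206, -1.08 for miR-1 and -0.44 for miR-133a (muscle). Among the neuronal names it was 0.62 for miR-129-5p and -1.02 for miR-129-3p. The part of these cell types in the results below was not tested, and fewer cells of a type cannot be told apart from less RNA per cell.

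The family was a minor part of the fibroblast microRNA pool, and miR-152 led it in each library. miR-152 was at 328 CPM (314 to 342; 2093 counts) without rtTA and without dox, at 344 (330 to 359; 2250 counts) without rtTA and with dox, at 223 (213 to 233; 1957 counts) with rtTA and without dox, and at 285 (273 to 298; 2143 counts) with rtTA and dox. Its levels were higher in the libraries without rtTA than in the rtTA libraries, and lowest in rtTA cells without dox. It ranked 137 to 142 among the 462 to 477 listed microRNAs in 3 libraries and lower in rtTA cells without dox.

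miR-148b was at 79.3 CPM (72.6 to 86.5; 506 counts), 107 (99.0 to 115; 698 counts), 74.1 (68.5 to 80.0; 650 counts) and 74.6 (68.5 to 81.0; 560 counts) in the same order. One library stood above the other 3 here, that without rtTA and with dox, and the other 3 have overlapping intervals. miR-148a was at 6.11 CPM (4.35 to 8.36; 39 counts), 5.81 (4.11 to 7.98; 38 counts), 3.76 (2.59 to 5.28; 33 counts) and 3.60 (2.37 to 5.23; 27 counts). Its rank was 347 of 462, 353 of 463, 369 of 476 and 362 of 477, and its 4 intervals overlap.

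The order miR-152, miR-148b, miR-148a was the same in each library and far outside counting error. miR-152 was 3.01-fold to 4.14-fold above miR-148b, and miR-148b was 13.0-fold to 20.7-fold above miR-148a. Levels are per read counted, with mature lengths of 21 to 22 bases. How readily the library preparation takes up each sequence was not tested, so the order is one of counts.

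**Figure D1:**
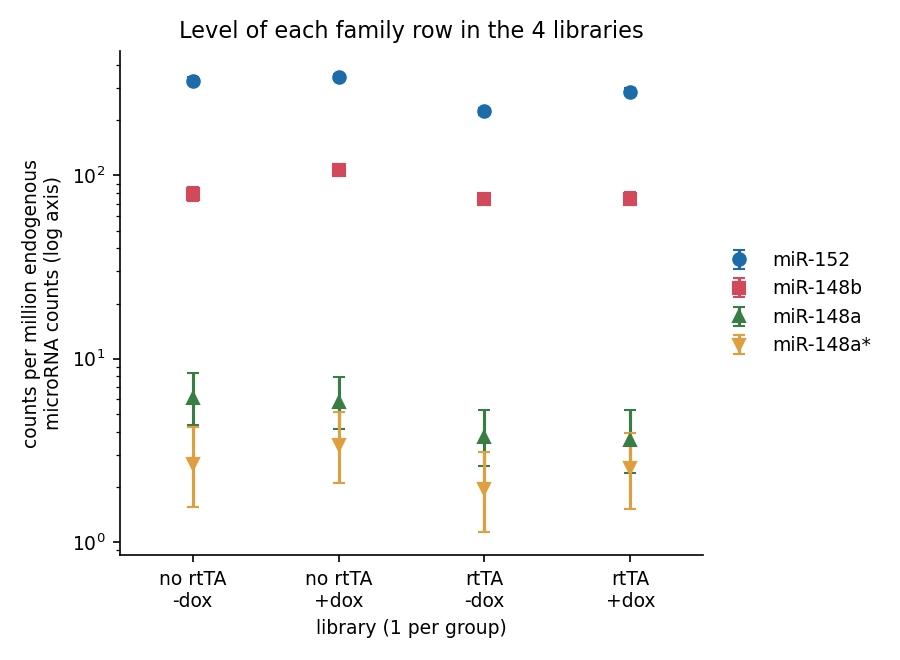
Level of each of the 4 family rows (vertical log axis, CPM) in the 4 libraries, 1 per group. Points are single libraries, and bars are exact Poisson 95% intervals, which are hidden by the points for miR-152. miR-152 lies at 223 to 344 CPM and miR-148a at 3.60 to 6.11, with miR-148a* below it at 1.94 to 3.36.

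The guide total was 414 CPM (398 to 430), 457 (440 to 473), 300.9 (289.5 to 313) and 364 (350 to 378) in the order above, which is 0.0301% to 0.0457% of the endogenous counts. miR-152 made up 79.3% (77.7% to 80.9%) of it without rtTA and dox, 75.4% (73.8% to 76.9%) without rtTA with dox, 74.1% (72.4% to 75.8%) with rtTA without dox and 78.5% (76.9% to 80.0%) with both (Clopper-Pearson intervals). The share of miR-148a was 0.989% to 1.48%. The family's seed in these cells was thus carried mainly by the microRNA from the Copz2 intron.

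The spread of each member over the 4 libraries was ordinary among the microRNAs past the abundance floor. The floor is a mean CPM that equals 20 counts in the shallowest library (3.14 CPM), and 372 microRNAs pass it. miR-152, miR-148b and miR-148a passed, and miR-148a* did not, with a mean of 2.62 CPM. The highest level over the lowest was 1.54-fold for miR-152, 1.44-fold for miR-148b and 1.70-fold for miR-148a, beside a median of 1.58-fold over the 372. A wider spread than that of miR-152 was seen for 203 of the 372.

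Ratios between libraries were counted as apart if they were at least 2-fold with a 95% interval that excluded equality. By this rule 0 of the 3 guides past the floor were apart in any of the 4 comparisons. The share of the 372 called in either direction was 9.95% for dox in rtTA cells, 1.61% for dox without rtTA, 1.88% for rtTA without dox and 16.7% for rtTA with dox. At 1.5-fold the guides again gave 0, and the shares of the 372 were 28.8%, 15.3%, 9.41% and 37.9%. Below these thresholds some intervals of miR-152 and miR-148b excluded equality, while those of miR-148a included it in all 4 comparisons. miR-148a was 1.63-fold lower in rtTA without dox and 1.62-fold lower in rtTA with dox, and was not called for that reason. At any fold, intervals excluded equality for 64.8% to 75.8% of the 372 in each comparison.

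**Figure D2:**
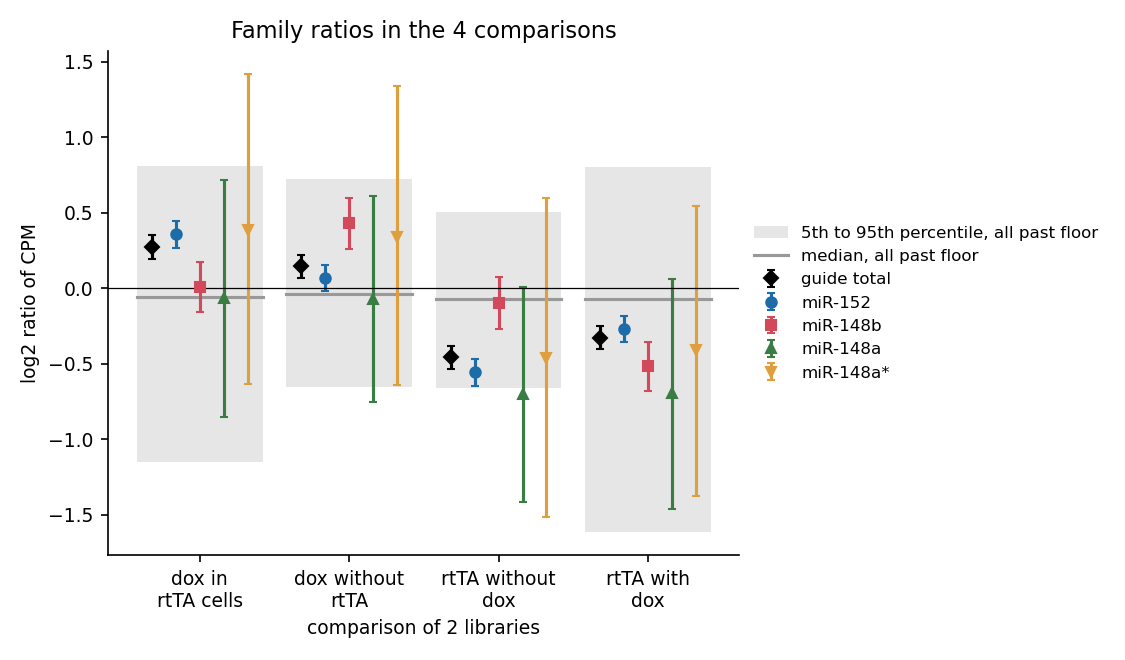
Log2 ratio of CPM for the guide total and the 4 family rows in the 4 comparisons of 2 libraries, with 95% counting intervals. Grey boxes span the 5th to 95th percentile of the 372 microRNAs past the floor and the grey line is their median. In the rtTA comparison without dox the guide total lies at -0.46 and miR-152 at -0.56, and miR-148a (-0.70) falls just below the box.

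With dox in rtTA cells the shRNA is switched on, and the question is how the family stands beside a strongly expressed hairpin. miR-152 was 1.28-fold higher in the induced library (285 against 223 CPM, log2 ratio 0.36, 0.27 to 0.44), while miR-148b was level (74.6 against 74.1 CPM, 0.01, -0.16 to 0.18). miR-148a was at -0.06 (-0.85 to 0.71), an interval too wide to separate it from either. The guide total was 0.27 higher on the log2 scale (0.20 to 0.35). The median of the 3 guides was 0.01, with 2 above 0, beside a median of -0.06 and 172 of 372 above 0 over all. Ratios of this comparison moved with the G content of the mature sequence (Pearson 0.72 over the 372 microRNAs, which share 2 libraries). miR-152 has 28.6% G and miR-148b and miR-148a 18.2% each, beside a median of 23.8%. With a linear trend on G subtracted, miR-152 was at 0.22 (0.13 to 0.31) and miR-148b at 0.31 (0.15 to 0.48). miR-152 was then no longer above miR-148b, and the 2 were not separable. The log2 change of miR-152 over miR-148b was -0.10, with an interval that includes 0 (-0.28 to 0.09). The part of base composition in these ratios was not tested otherwise.

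**Figure D3:**
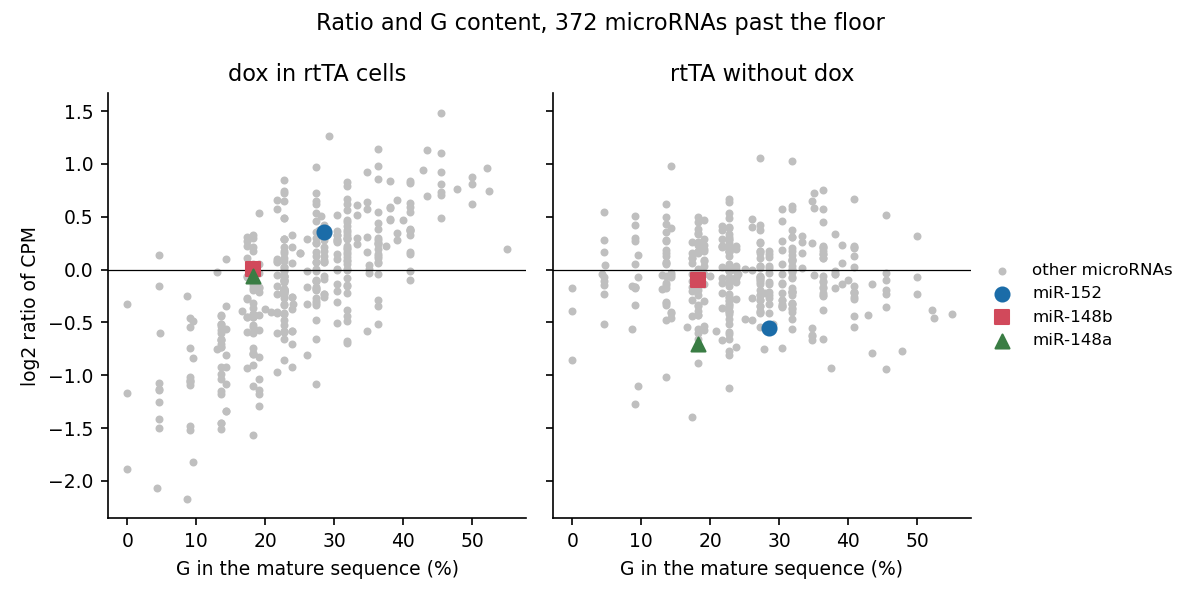
Log2 ratio of CPM (vertical) against the percentage of G in the mature sequence (horizontal) for the 372 microRNAs past the floor, for dox in rtTA cells (left) and rtTA without dox (right). The cloud slopes upward on the left (Pearson 0.72) and is flat on the right (-0.0038). miR-152 (28.6% G) lies above miR-148b and miR-148a (18.2% G) on the left, and below miR-148b on the right.

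Dox in cells without rtTA leaves the shRNA uninduced. Here it was miR-148b that differed, 1.35-fold higher with dox (107 against 79.3 CPM, log2 ratio 0.43, 0.26 to 0.60), and 57 of the 372 had a higher ratio. miR-152 was at 0.07 (-0.02 to 0.15) and miR-148a at -0.07 (-0.76 to 0.61). The guide total was at 0.14 (0.07 to 0.22), and the median of the 3 guides was 0.07 beside -0.04 over all. With the trend on G subtracted miR-148b was at 0.37 and miR-152 at 0.10, in the same order.

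The dox ratios with and without rtTA come from separate pairs of libraries. For miR-148b the ratio with rtTA minus that without was -0.42 (-0.65 to -0.19), and for miR-152 it was 0.29 (0.16 to 0.41). Differences whose counting interval excludes 0 were common, at 281 of 372 (75.5%). With the trend on G subtracted both intervals include 0, at -0.05 (-0.29 to 0.18) for miR-148b and 0.12 (-0.0039 to 0.24) for miR-152. For miR-148a it was 0.01 (-0.96 to 0.98).

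The rtTA genotype without dox compares the uninduced libraries. Each guide was lower with rtTA, with a median of -0.56 beside -0.07 over all, where 217 of 372 (58.3%) lay below 0. miR-152 was 1.47-fold lower (223 against 328 CPM, log2 ratio -0.56, -0.65 to -0.47), just inside the 1.5-fold within which 89.8% of the 372 lay, and 32 of the 372 had a lower ratio. miR-148a had a ratio of -0.70 on 33 and 39 counts, with an interval from -1.42 to 0.01. miR-148b was at -0.10 (-0.27 to 0.07). The guide total was 1.37-fold lower with rtTA (-0.46, -0.54 to -0.38). The correlation of the ratios with G content was -0.0038, and miR-152 was at -0.56 with the trend subtracted too.

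rtTA with dox sets the induced library against dox-treated cells without the transactivator. The guides were again all lower with rtTA, with a median of -0.52 beside -0.07 over all, where 207 of 372 (55.6%) lay below 0. This comparison shares a library with each of the dox comparisons above, so its values are not further support for those. The libraries of rtTA without dox are different ones. Each group is 1 library in both genotype comparisons, so the spread between cultures is unknown for both. miR-148b was 1.43-fold lower (74.6 against 107 CPM, -0.52, -0.68 to -0.35), miR-152 1.21-fold lower (285 against 344 CPM, -0.27, -0.36 to -0.18), and miR-148a was at -0.69 (-1.46 to 0.06). The guide total was at -0.33 (-0.40 to -0.25). With the trend on G subtracted (Pearson 0.69), miR-148b was at -0.15 with an interval that includes 0 (-0.32 to 0.0091), and miR-152 was at -0.44 (-0.52 to -0.35).

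Taken by genotype, each of the 3 guides had both rtTA libraries below both libraries without rtTA. This grouping across dox was chosen after the values were seen. The share of the 372 with that same order was 24.5%, and in either direction 39.5%. For miR-148b the gap was between 74.6 and 79.3 CPM, where the intervals overlap, and for miR-148a between 3.76 and 5.81. For miR-152 it was between 285 (273 to 298) and 328 (314 to 342), where they do not. Grouped by dox instead, the libraries of each of the 3 guides overlapped, while 25.8% of the 372 did not.

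The ratio of miR-152 to miR-148b within a library does not depend on how libraries were scaled. It was 4.14 (3.75 to 4.57) without rtTA and dox, 3.22 (2.96 to 3.51) without rtTA with dox, 3.01 (2.75 to 3.30) with rtTA without dox and 3.83 (3.49 to 4.21) with both. The untreated and the induced library thus had high ratios and the other pair low ones. Dox went with a lower ratio without rtTA (log2 change -0.36, -0.55 to -0.17) and with a higher one with rtTA (0.35, 0.16 to 0.53). miR-152 and miR-148b differ in G content, and with the trend on G subtracted the change with rtTA was -0.10 (-0.28 to 0.09), so that the opposite directions were no longer seen, while that without rtTA was -0.27 (-0.46 to -0.08). For rtTA with dox the change turned from 0.25 (0.07 to 0.43) to -0.28 (-0.47 to -0.10), and for rtTA without dox it was -0.46 either way. The spread of this ratio between replicate cultures is unknown.

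**Figure D4:**
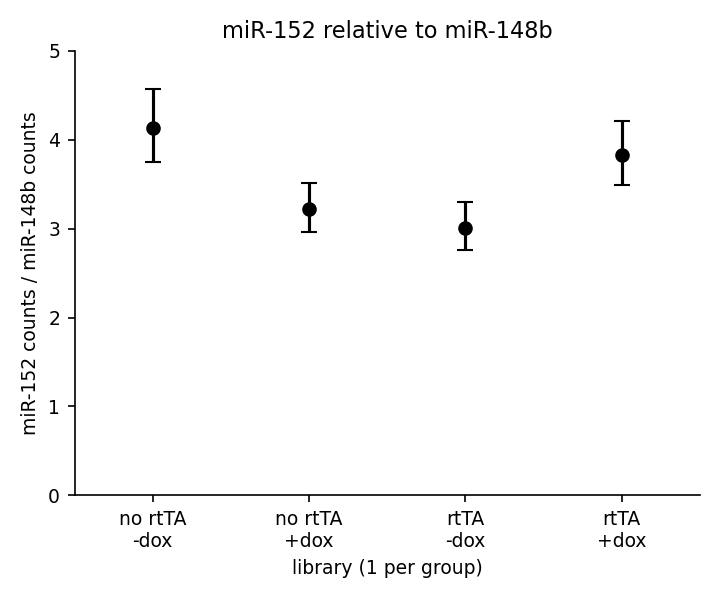
Counts of miR-152 divided by counts of miR-148b (vertical axis from 0) in each of the 4 libraries, with exact 95% counting intervals. The ratio is 4.14 and 3.83 in the untreated library without rtTA and in the induced rtTA library, and 3.22 and 3.01 in the other pair.

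The miR-148a hairpin was the one whose arms were both listed. miR-148a* had 17, 22, 17 and 19 counts in the order above, at 2.67, 3.36, 1.94 and 2.53 CPM. Its share of the counts of both arms was 30.4% (18.8% to 44.1%), 36.7% (24.6% to 50.1%), 34.0% (21.2% to 48.8%) and 41.3% (27.0% to 56.8%). The intervals of the 4 libraries overlap widely, and the log2 odds ratios between libraries ran from 0.24 to 0.45 with intervals that include 0. The guide and star counts were not separable in 2 libraries, that without rtTA with dox (1.73-fold, 0.996 to 3.07) and that with both (1.42-fold, 0.76 to 2.70). Among 81 guide and star pairs whose arms summed to 20 or more counts in every library, the median star share was 2.05% to 2.30%, and 7 to 13 pairs, miR-148a included, had a share at least as high. The guide arm of miR-148a was thus counted 1.42-fold to 2.29-fold as often as its star arm in the 4 libraries.

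The family's seed also occurs outside the family, moved by 1 base. The letters CAGUGCA were searched on the sense strand in the first 10 bases of all 508 listed microRNAs and found in 9 (1.77%). These were the 3 guides at bases 2 to 8, 5 members of the group of miR-130 and miR-301 at bases 1 to 7, and miR-449c from base 4. Since the seed of that group is read from base 2, it shares 6 of these letters and adds the next base. The more abundant ones are shown, with the shared letters in capitals.
miR-130a: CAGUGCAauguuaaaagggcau
miR-301a: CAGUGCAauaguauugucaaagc
miR-130b: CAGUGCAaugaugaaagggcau
This group was far more abundant. Summed over its 5 listed names it was at 18474 to 21010 CPM, which is 44.7-fold to 62.0-fold above the guide total of the miR-148 family in the same library. Its 4 members past the floor (miR-130a, miR-130b, miR-301a and miR-301b) had medians of 0.08, -0.07, -0.06 and -0.19 in the 4 comparisons in the order used above. At 2-fold 0 were called, beside 1.61% to 16.7% of the 372 microRNAs past the floor. At 1.5-fold 1 was called, miR-301a for dox in rtTA cells (-0.60, -0.64 to -0.56), beside 28.8% of the 372. In that comparison miR-130b went the other way, at 0.30. In the genotype comparison without dox miR-130a was at 0.03 and miR-130b at 0.0018, and miR-301b at -0.48 (-0.70 to -0.26), beside -0.56 for miR-152.

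miR-29a, miR-29b and miR-29c, which are known for sites in Dnmt3a and Dnmt3b, were taken as a second set known for DNA methyltransferases. They summed to 70916 to 101257 CPM, 195-fold to 302-fold above the guide total of the miR-148 family. Their medians were -0.45, 0.27, 0.16 and -0.55 in the 4 comparisons. At 2-fold, 1 of the 3 was called in rtTA with dox, miR-29c (-1.02, -1.08 to -0.96), beside 16.7% of the 372 microRNAs past the floor. In the other 3 comparisons 0 were called, beside 1.61% to 9.95% of the 372. At 1.5-fold miR-29c was called lower for dox in rtTA cells as well (-0.80, -0.85 to -0.74), beside 28.8% of the 372. Where dox was given to rtTA cells all 3 were below 0 while miR-152 was above 0. The miR-29 guides have 17.4% to 18.2% G, beside 28.6% for miR-152. Ratios moved with G content in this comparison (Pearson 0.72) and in rtTA with dox (0.69). No value with the trend on G subtracted is given for the miR-29 guides, and the part of G content in their ratios was not tested. With rtTA and no dox miR-29a was at 0.26, miR-29c at 0.16 and miR-29b at -0.04, beside -0.56 for miR-152. Neither the methyltransferases nor any other messenger RNA was measured in these libraries.

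Profiles were compared by the root mean square distance of log2 CPM over the 4 libraries, each profile centred on its mean. miR-152 was nearest to miR-146b (0.07), miR-34b-5p (0.07) and miR-720 (0.08), beside a median distance of 0.34 to all others. miR-34b-5p, a p53-responsive microRNA, ran at 843, 817, 504 and 650 CPM, with the low point in rtTA cells without dox that miR-152 also has. miR-148b was nearest to miR-128 (0.07), miR-666-3p (0.07) and miR-376a* (0.07), each highest without rtTA with dox. miR-148a was nearest to miR-136 (0.04), miR-30c (0.09) and miR-214* (0.11), though on its 27 to 39 counts per library this order is uncertain. The guide total was nearest to miR-190b (0.07), miR-411 (0.07) and miR-338-3p (0.07). Within the family the distances were 0.18 (miR-148b and miR-152), 0.21 (miR-148a and miR-152) and 0.26 (miR-148a and miR-148b). These lie below the medians to all others of 0.33 and 0.40. The nearest microRNAs were picked for the smallest distances, so they are no measure for the family pairs. How many microRNAs lie closer than the family pairs was not counted. With 4 libraries such distances describe these libraries and are not a test.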

How the data were processed

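The authors deposited raw read counts per microRNA, 1 file per library, and per the file headers each file names its library and no processing step. The aligner, mismatches allowed, microRNA database and build were not given in the sources used here. MicroRNAs absent from a library's list were set to 0, which allows up to 0.342 to 0.470 CPM (3 counts). The row of the shRNA was left out of scaling and tests. Of 508 microRNAs, 372 passed a floor of 20 counts in the shallowest library on mean CPM, with 99.99% of the endogenous counts.

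Log2 ratios of CPM were given exact conditional binomial (Clopper-Pearson) 95% intervals, levels exact Poisson intervals, and the difference of dox ratios a delta-method interval (0.5 added per count) (SciPy 1.17.1). Reads lack molecular identifiers and can be copies of 1 molecule, so all intervals cover counting error only. With 1 library per group no p-value was computed. The script for ratios and calls was tested on simulated data. TMM factors (edgeR 4.0.16) and DESeq2 1.42.0 size factors, computed on the 372, scaling with the shRNA counts or without the 10 most abundant microRNAs, and subtraction of a linear trend on G were alternatives. For the counts of microRNAs apart, no floor and leaving out star names were tried too. Sequences were matched by name to RefSeq (GRCm38.p6): all 4 listed rows matched.

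Named microRNAs are the family rows, the 3 nearest profiles of each guide and of the guide total, and guides of the lists of miR-130 with miR-301 and of miR-29. Members and lists were chosen with earlier results of these data known.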

Additional observations from a re-analysis of the deposited data

Results flagged for a closer look

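The dox ratio with rtTA differed from that without rtTA by more than counting error for miR-148b (-0.42 on the log2 scale, -0.65 to -0.19), for miR-152 (0.29, 0.16 to 0.41) and for the summed guides (0.13, 0.02 to 0.24). These intervals come from 1 library per group, so the difference was not tested against the spread between cultures, and 75.5% of the 372 microRNAs past the floor had an interval that excludes 0. miR-148b lay below 0 and miR-152 above, and 120 and 246 of the 372 had a lower difference than these. With a linear trend on G content subtracted the intervals of all 3 include 0: miR-148b was at -0.05 (-0.29 to 0.18), miR-152 at 0.12 (-0.0039 to 0.24) and the summed guides at 0.09 (-0.02 to 0.19). The interval of the summed guides also includes 0 when the shRNA counts enter the scaling (0.10, -0.01 to 0.20).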

How the results depend on the processing

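The other scalings shifted each log2 ratio of a comparison by -0.03 to 0.08. Under them the direction of the guide total held in all 4 comparisons. In rtTA with dox it was at -0.328 (-0.404 to -0.253). With TMM and with DESeq2 size factors it moved to -0.249, just outside that interval. Of 104 values of single members under alternatives, 96 stayed within their main interval, 6 moved and 2 turned their direction, these 8 with the trend on G subtracted. The 2 were the change of miR-152 over miR-148b for dox in rtTA cells (-0.10 in place of 0.35) and for rtTA with dox (-0.28 in place of 0.25). The interval of the first includes 0 (-0.28 to 0.09). For both, this alternative was chosen after seeing the data. The 6 were miR-148b and miR-152 for dox in rtTA cells (0.31 and 0.22), for rtTA with dox (-0.15 and -0.44) and for the difference of dox ratios (-0.05 and 0.12). The number of microRNAs at least 2-fold apart was 9 in place of 37 (dox in rtTA cells; 2 higher and 7 lower) and 30 in place of 62 (rtTA with dox; 6 higher and 24 lower) with that trend subtracted. With no floor it was 11 in place of 6 (dox without rtTA) and 15 in place of 7 (rtTA without dox), and with star names left out 2 in place of 6 (dox without rtTA). For rtTA without dox the split was 2 higher and 5 lower, and 3 and 4 with TMM, with DESeq2 size factors and without the 10 most abundant. No paired analysis was possible because each group holds 1 library, and no library could be left out for the same reason. Star shares and the ratio of miR-152 to miR-148b within a library do not depend on scaling. Depth limits miR-148a and miR-148a*, at 17 to 39 counts per library: the interval of miR-148a included equality at a 1.63-fold difference.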
